A study of Mus musculus with 18 samples.

Results

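The Mir322, Mir503, Mir351 and Mir542 cluster is a group of miRNA hairpin loci on the mouse X chromosome. Its 4 members were taken by their GENCODE symbols from 2009 miRNA loci counted in each library. Small RNA was sequenced from stromal cells (ASC) grown from the adipose tissue of adult NGL mice, and from the extracellular vesicles (EVs) those cells released into the medium. Primed cells had 24 h of interferon gamma, an inflammatory cytokine, in alpha MEM with 2% EV-free serum. The dose is not given in the sources used here. Naive cells had none, and both were then cultured for 48 h in the same medium. Of the 18 libraries, 5 were of naive EV and 5 of primed EV, both numbered 1 to 5. The other 8 were 4 of naive ASC (numbers 1, 3, 4 and 5) and 4 of primed ASC (numbers 2, 3, 4 and 5). These numbers come from the source names. In the titles, primed EV 1 and primed EV 5 both carry a 5, and naive EV 1 and naive ASC 1 carry 1+2, so a pair of primed EV libraries may share a source and a library numbered 1+2 may be a pool, which the labels do not settle. ASC RNA came from TRIzol and RNeasy columns and EV RNA from a SeraMir column, so the isolation method and the difference between EVs and cells cannot be told apart. The labels do not say whether replicates came from separate animals or cultures, and a p-value here reflects only how much these libraries vary, which may be technical. In bulk RNA, fewer cells or vesicles of a kind and less RNA in each cannot be told apart.

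These miRNAs are cut from a shared X-linked transcript. Mir322 is the mouse form of human miR-424, and miR-322 and miR-503 are known as regulators of the cell cycle and of muscle and fat cell differentiation. A miRNA finds its targets mainly through its seed, the bases near its 5′ end, so miRNAs with 1 seed share many predicted targets even where they lie on different chromosomes. miR-322 belongs to the miR-15 and miR-16 family by its seed, miR-503 is a close relative of that family, and miR-351 belongs to the miR-125 family. Annotation (GRCm38, all on the minus strand) placed the hairpins in the order of transcription as Mir322 at chrX:53054255-53054349, Mir503 at chrX:53053984-53054054, Mir351 at chrX:53053255-53053353 and Mir542 at chrX:53049403-53049487. Downstream of Mir542 follow Mir450-2, Mir450-1 and Mir450b, the last at chrX:53047997-53048078. No hairpin overlapped another annotated gene. The lincRNA Gm28730 lies between Mir351 and Mir542, and the processed transcript C430049B03Rik lies upstream of Mir322.

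The mature arms are shown with their seed (bases 2 to 8) in capitals, because the seed sets which other loci each member can be compared with. They are read 5′ to 3′ and come from RefSeq (GRCm38.p6).
miR-322-5p: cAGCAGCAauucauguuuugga
miR-503-5p: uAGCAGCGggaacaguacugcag
miR-15b-5p: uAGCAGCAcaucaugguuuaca
miR-16-5p: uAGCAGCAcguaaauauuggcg
miR-351-5p: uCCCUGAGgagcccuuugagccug
miR-125a-5p: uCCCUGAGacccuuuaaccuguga
miR-125b-5p: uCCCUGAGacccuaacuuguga
miR-542-3p: uGUGACAGauugauaacugaaa
miR-542-5p: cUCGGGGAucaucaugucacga
miR-450b-5p: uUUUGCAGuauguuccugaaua
miR-322-5p had the same seed as miR-15b-5p and miR-16-5p. The seed of miR-503-5p differed from it in its last base, and miR-351-5p shared its seed with miR-125a-5p and miR-125b-5p. miR-542-3p shared its seed with no other mature arm in the table. The counts are of whole hairpin loci, so they do not separate the arms.

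Totals ran from 613448 to 3052942 counts in EV libraries and from 180812 to 926183 in ASC libraries. Between 303 and 423 loci had a count in a library, and 245 loci were tested. The 12 mesenchymal marker miRNAs all had counts in each group and made up 26.6 to 31.6% of the counts in naive EV, 30.7 to 32.3% in primed EV, 18.04 to 31.5% in naive ASC and 15.2 to 26.8% in primed ASC. Haematopoietic markers (6 of 8 in the files, all with counts) made up 0.361 to 1.49%, 0.147 to 0.625%, 0.0128 to 0.0214% and 0.00916 to 0.0559% in the same order. The endothelial marker Mir126a made up 0.318 to 0.902%, 0.198 to 0.496%, 0.0105 to 0.0288% and 0.00601 to 0.0592%. Blood and vessel markers were thus higher in all 10 EV libraries than in any ASC library, and their part in the results below was not tested. Epithelial markers (10 of 10 with counts) made up 0.283 to 1.37% in naive EV, 0.355 to 0.664% in primed EV, 1.11 to 1.95% in naive ASC and 0.439 to 1.34% in primed ASC, with medians of 0.553, 0.606, 1.42 and 0.846%. By median, their summed share was thus lower in EVs than in cells, and lower in primed than in naive cells, with ranges that overlapped. Their part was not tested either. Single markers went both ways between EV and ASC. Mir141, Mir200a, Mir200b, Mir429 and Mir96 were above 0 on the log2 scale in both comparisons. Mir183, Mir200c and Mir205 were below 0 in both, and Mir182 changed sign. Striated muscle markers reached at most 0.00412% of a library, the liver marker Mir122 0.00196% and neural markers 0.000983%. Of the muscle markers, Mir133a-1 and Mir133a-2 had no count in any group, nor had the neural markers Mir124a-1, Mir124a-3 and Mir9-2.

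All members were detected, at very different levels. Mir351 led with 53673 counts over the 18 libraries, followed by Mir322 with 4243, Mir542 with 403 and Mir503 with 123. Mir351 held 88.0% of the members' counts in naive EV, 83.5% in primed EV, 97.1% in naive ASC and 96.3% in primed ASC. Together the members made up 0.279% ± 0.0758 (SD, n = 5) of the counts in naive EV, 0.161% ± 0.0363 (SD, n = 5) in primed EV, 0.867% ± 0.344 (SD, n = 4) in naive ASC and 0.394% ± 0.0859 (SD, n = 4) in primed ASC. By mean share, Mir351 ranked 41st, 53rd, 23rd and 36th among all loci in these groups, and Mir322 ranked 101st, 99th, 123rd and 139th.

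The order of the levels, in TMM-normalised counts expressed as CPM, i.e. relative to 1000000 counts, per 100 bases of hairpin, was fixed at the top and switched at the bottom. In all 10 EV libraries it ran Mir351, Mir322, Mir542, Mir503. In all 8 ASC libraries it ran Mir351, Mir322, Mir503, Mir542. The last places in ASC rest on few counts. Mir503 had 6 to 19 counts in naive and 2 to 13 in primed ASC libraries, and Mir542 had 1 to 4 and 1 to 2. In naive EV the mean levels per 100 bases were 2679 ± 692 for Mir351, 342 ± 124.5 for Mir322, 43.3 ± 17.6 for Mir542 and 6.49 ± 4.42 for Mir503 (SD, n = 5). In naive ASC they were 6461 ± 1646, 175 ± 28.3, 3.75 ± 1.92 and 20.1 ± 4.13 in the same order of loci (SD, n = 4). Mir542 was thus above Mir503 in vesicles and below it in cells.

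**Figure D1:**
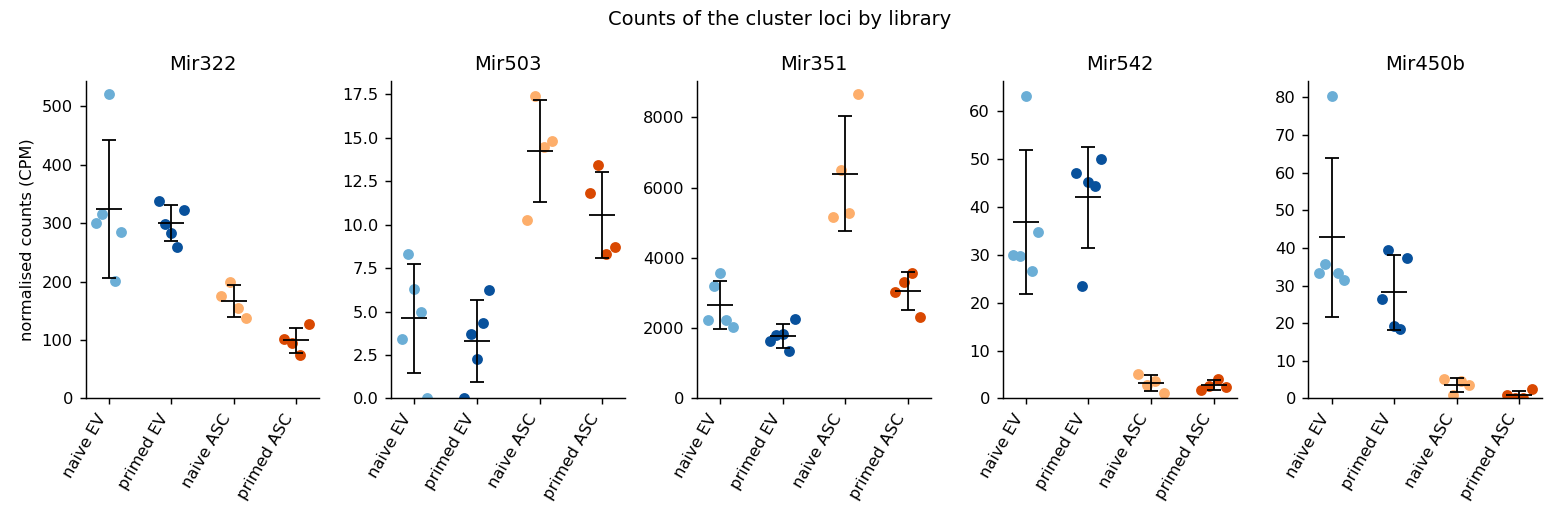
Normalised counts (CPM, linear axes from 0) of the 4 members and of Mir450b in each of the 18 libraries, 1 point per library, with the group mean and SD as black bars. Mir322, Mir542 and Mir450b are higher in EV than in ASC libraries, while Mir503 and Mir351 are lower, and Mir351 is lower in primed than in naive ASC.

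The first question was how EVs differ from the cells that release them. Members of this 1 cluster went in both directions: Mir322 and Mir542 were higher in EVs, and Mir503 and Mir351 were higher in cells. Of the 245 loci tested by edgeR's quasi-likelihood test, 66.1% were called between naive EV and naive ASC (33.5% higher and 32.7% lower in EV) and 68.2% between primed EV and primed ASC (35.9% and 32.2%), so a call by itself does not set a locus apart. The higher and lower calls numbered 82 and 80 in the naive and 88 and 79 in the primed comparison, against 65 and 116, and 58 and 118, with library totals alone as scaling. Libraries of the groups did not overlap at 58.4% and 53.5% of loci. Mir503 passed the filter on low counts through its ASC libraries, and Mir542 and Mir450b through their EV libraries, so the filter favoured a difference at these 3 loci, and each is given with its value without the filter as well.

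Mir322, at the 5′ end of the cluster, was the moderate EV-enriched member. Naive EV libraries 1 to 5 had 301, 316, 520.5, 201 and 284 CPM, and naive ASC libraries 175, 199.5, 154.5 and 137. Every naive EV library was above every naive ASC library, although naive EV 4 and the highest ASC library almost touched, and naive EV 3 was the highest of all. The log2 fold change was 0.96 (SE 0.24, edgeR adjusted p = 0.00166). Primed EV libraries had 338, 299, 283, 259 and 322 CPM against 102, 94.1, 74.7 and 127 in primed ASC, with a wide gap between the groups and a log2 fold change of 1.58 (SE 0.25, edgeR adjusted p = 1.54e-05). The median over all loci was -0.24 in the naive and 0.02 in the primed comparison. With library totals alone as scaling it moved to -0.70 and -0.69, and the naive value of Mir322 fell to 0.49 (edgeR adjusted p = 0.0569), and the primed value to 0.89, still called. Relative to that median Mir322 was at 1.20 under TMM and 1.19 under totals in the naive comparison, and at 1.56 and 1.58 in the primed one. A change of scaling shifts all loci nearly alike, so these relative values could hardly differ and do not bear on the lost call.

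Mir503, which lies closest to Mir322, went the other way on few counts. Naive EV libraries held 7, 7, 7, 3 and 0 counts, and naive ASC libraries 6, 19, 16 and 12. In CPM, naive EV had 3.43, 8.32, 6.31, 4.98 and 0, and naive ASC 10.3, 17.4, 14.5 and 14.8. The 0 in naive EV 5 allows up to 4.96 CPM, so no EV library reached the lowest ASC library. The log2 fold change was -1.59 (SE 0.55, edgeR adjusted p = 0.0165). In primed EV the counts were 0, 10, 2, 4 and 3, or 0, 3.73, 2.26, 4.33 and 6.24 CPM, and primed ASC had 13, 5, 2 and 7 counts, or 11.8, 13.4, 8.30 and 8.70 CPM. The 0 in primed EV 1 allows up to 5.64 CPM. Again the groups did not overlap, with a log2 fold change of -1.63 (SE 0.61, edgeR adjusted p = 0.0245). Both calls were lost without the filter (adjusted p = 0.0866 and 0.156), the naive call with counts thinned to the shallowest library (-1.10, adjusted p = 0.174), and the primed call without primed ASC 2 (-1.55) or primed ASC 3 (-1.52), where the largest adjusted p was 0.0622.

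Mir351, the member with the miR-125 seed, was the most abundant member on both sides and was higher in cells. Naive EV libraries had 2228, 3196, 3568, 2242 and 2025 CPM, and naive ASC libraries 5152, 6503, 5267 and 8662. The lowest cell library was above the highest vesicle library. The log2 fold change was -1.27 (SE 0.21, edgeR adjusted p = 3.75e-05). Primed EV libraries had 1633, 1814, 1834, 1337 and 2273 CPM against 3018, 3326, 3566 and 2304 in primed ASC, where primed ASC 5 lay just above the highest EV library. There the log2 fold change was -0.78 (SE 0.21, edgeR adjusted p = 0.00338), or -1.49 when libraries were scaled by their totals only. Relative to the median locus, Mir351 was at -0.795 under both scalings, a value that a change of scaling could hardly move. The summed share of epithelial markers, also lower in EVs by median although single markers went both ways, is given above. Median shares of mesenchymal, haematopoietic and endothelial markers were higher in EVs, and the part of any of these lists was not tested.

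Mir542 had the largest fitted fold changes of the members and few counts in cells. Its CPM were 29.9, 29.7, 63.1, 26.6 and 34.7 in naive EV and 5.15, 2.75, 3.61 and 1.24 in naive ASC, where the counts were 3, 3, 4 and 1. Primed EV libraries had 47.0, 23.5, 45.3, 44.4 and 49.9 CPM, and primed ASC libraries 1.82, 2.69, 4.15 and 2.48, from 1 or 2 counts each. Every EV library was several times above every ASC library. The log2 fold changes were 3.52 (SE 0.45, edgeR adjusted p = 1.2e-06) and 4.00 (SE 0.50, edgeR adjusted p = 9.11e-07). Without the filter, which Mir542 passed through its EV libraries, they were 3.53 (edgeR adjusted p = 3.52e-07) and 4.05 (edgeR adjusted p = 1.01e-07). From summed counts, 193 in EV against 11 and 6 in ASC, the ratios were 12.1 (95% exact interval 6.63 to 24.7) and 14.7 (6.64 to 40.6). Such intervals cover counting error only.

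Mir450b, the last hairpin of the cluster, followed Mir542. It had 68, 30, 89, 20 and 19 counts in naive EV and 14, 106, 17, 17 and 18 in primed EV, against 3, 1, 5 and 3 in naive ASC and 1, 0, 0 and 2 in primed ASC. The lowest EV library had 18.4 CPM and the highest ASC library 5.15. The 0 counts in primed ASC 3 and 4 allow up to 8.07 and 12.5 CPM, which also lie below every EV library. The naive log2 fold change was 3.60 (SE 0.53, edgeR adjusted p = 8.21e-06), or 3.59 without the filter (edgeR adjusted p = 2.79e-07), and from the 3 counts in primed ASC the ratio of summed counts was 26.2 (95% exact interval 8.83 to 128). Mir450-1 and Mir450-2, which encode the same mature miR-450a-5p, had 3 counts and 0 counts in all 18 libraries. The counting had no option for reads with several placements.

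Listed along the transcript, the fitted values were above 0 at Mir322, below 0 at Mir503 (295 bases downstream) and Mir351 (996 bases), and above 0 at Mir542 (4862 bases) and Mir450b (6271 bases). This is a description of 5 loci, and the Mir503 calls were not kept without the filter. The plot of fold change against distance shows the same order in naive and in primed samples, which share no library. The neighbouring X-linked cluster of Mir106a to Mir363 begins 311782 bases away. Only Mir92-2 of its 6 loci was tested, and it was at -0.02 (naive) and -0.92 (primed), neither called. Of its loci not tested, Mir363 had 49 counts over 10 libraries and Mir19b-2 had 37 over 6, all of them EV libraries. Both had 0 counts in ASC, where the shallowest libraries are. Of 17 X-linked loci tested outside the cluster, 5 were called higher and 4 lower in naive EV (52.9% called, median -0.02). In primed EV 8 were called higher and 5 lower (76.5% called, median -0.12). Over all loci 66.1% and 68.2% were called, with medians of -0.24 and 0.02.

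**Figure D2:**
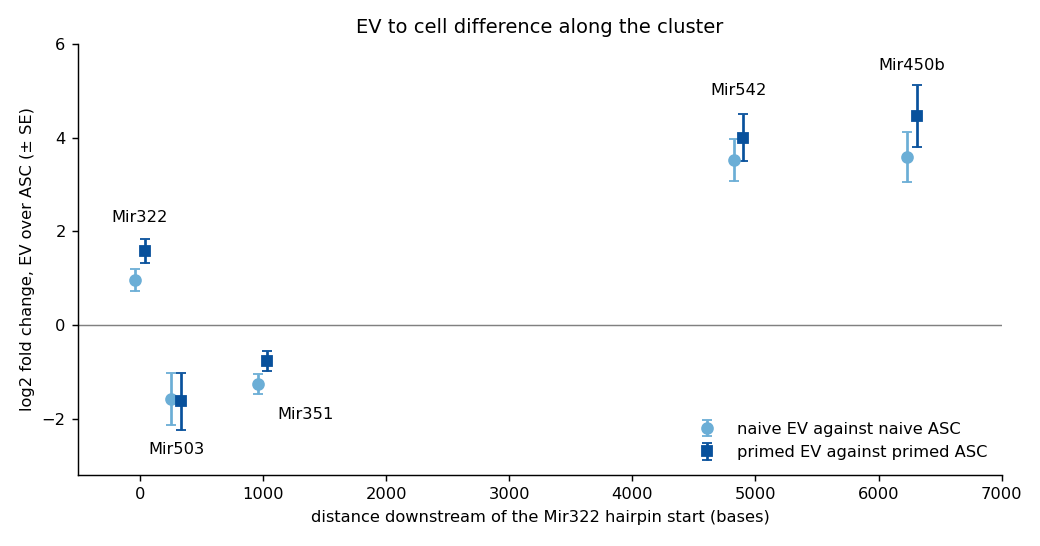
Log2 fold change of EV over ASC with its SE (vertical axis) against the distance in bases downstream of the Mir322 hairpin start (horizontal axis), for the naive and the primed comparison. Mir322, Mir542 and Mir450b lie above 0 and Mir503 and Mir351 below it in both. The primed Mir450b point is a fitted value that rests on 3 counts in primed ASC.

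The ratio of Mir322 to another member within a library does not depend on how libraries are scaled. Over 20 exact tests of ratios and shares, p-values were adjusted by Benjamini-Hochberg. The log2 ratio of Mir322 to Mir351 was -3.06 ± 0.32 (SD, n = 5) in naive EV and -5.24 ± 0.50 (SD, n = 4) in naive ASC, a difference of 2.18, or 4.53-fold (two-sided exact permutation p = 0.0159, adjusted 0.0317). Between primed EV and primed ASC it differed by 2.38, or 5.21-fold (exact permutation p = 0.0159, adjusted 0.0317). In both comparisons the EV and ASC libraries did not overlap, and 0.0159 is the smallest p that 5 against 4 libraries can give. With any ASC library left out, the smallest possible p is too large for these tests to pass after adjustment, so leaving out an ASC library says nothing about them.

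For the neighbours Mir322 and Mir503, the counts enter the ratio whether or not a locus passes the filter. Their log2 ratio was 6.26 ± 1.35 (SD, n = 5) in naive EV and 3.50 ± 0.35 (SD, n = 4) in naive ASC, a difference of 2.76, or 6.79-fold. In primed samples the difference was 3.42, or 10.7-fold, and both had an exact permutation p = 0.0159 (adjusted 0.0317) with groups that did not overlap. The EV side rests on 0 to 10 Mir503 counts a library. The naive difference was 1.86 with counts thinned to the shallowest library (adjusted p = 0.068, exact permutation test). The ratio of Mir322 to Mir542 went the other way, by -2.45 on the log2 scale in naive samples (exact permutation p = 0.0159, adjusted 0.0317) and by -1.90 in primed samples (exact permutation p = 0.0317, adjusted 0.0454), where primed EV 2 at 3.66 overlapped the lowest primed ASC library at 3.62. This primed call was lost when primed EV 1, 3, 4 or 5 was left out, with differences from -1.89 to -1.82, and with primed EV 1 and 5, which share a title number, averaged as 1 sample (-1.87, adjusted p = 0.0816, exact permutation test).

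**Figure D3:**
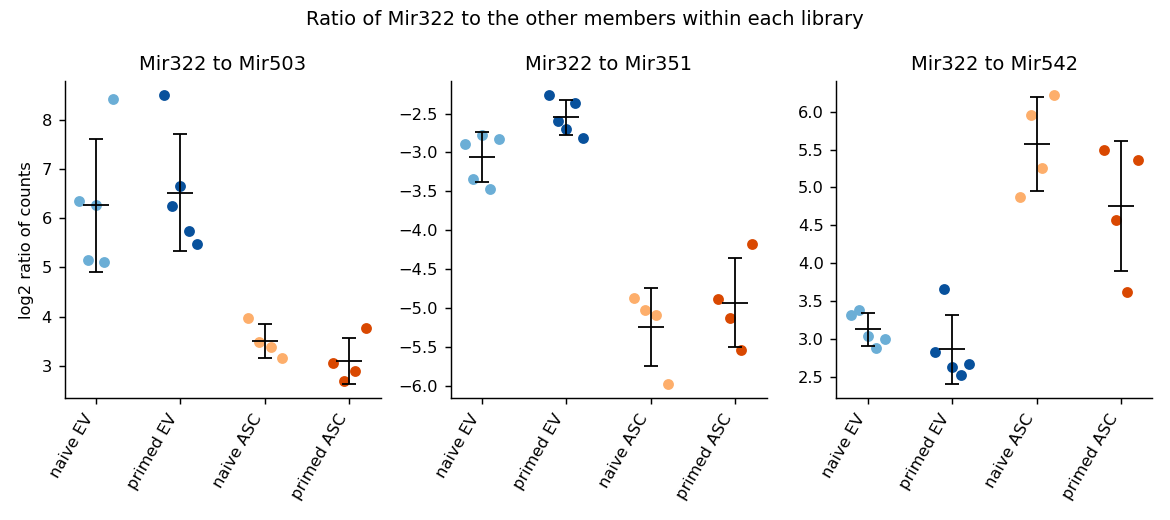
Log2 ratio of Mir322 to Mir503, Mir351 and Mir542 counts (pseudocount 0.5) in each library, 1 point per library, with the group mean and SD. The first pair of ratios is higher in all EV libraries than in any ASC library, and the ratio to Mir542 is lower in EV libraries, with 1 primed EV library reaching the range of primed ASC.

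Priming with interferon gamma was compared next, first in the cells. In ASC, Mir351 fell, and it was the member called. Its 4 primed libraries (3018, 3326, 3566 and 2304 CPM) all lay below the 4 naive ones (5152 to 8662 CPM). The log2 fold change was -1.07 (SE 0.23, edgeR adjusted p = 0.00762), a fall to 3054 ± 547 from 6396 ± 1630 CPM (SD, n = 4 each). Of all loci, 10.2% were called in this comparison, 5.31% higher and 4.9% lower, and the libraries did not overlap at 11.4%. The higher and lower calls numbered 13 and 12, against 17 and 2 under TMMwsp, 18 and 5 under RLE factors and 17 and 6 under TMM without the 5 most abundant loci. The count of 25 calls fell to 14, 6, 9 and 10 without naive ASC 3, naive ASC 4, primed ASC 3 and primed ASC 4. Mir351 stayed called whichever of the 18 libraries was left out, between -1.16 and -0.82 on the log2 scale (largest edgeR adjusted p = 0.0447). The median share of epithelial markers was also lower in primed ASC (0.846%) than in naive ASC (1.42%), as was that of mesenchymal markers (19.55% against 28.58%). The medians of haematopoietic (0.0297% against 0.0165%) and endothelial markers (0.0246% against 0.0124%) were higher in primed ASC. All these ranges overlapped, and the part of these markers in the fall was not tested.

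Mir322 also had no overlap between primed ASC (102, 94.1, 74.7 and 127 CPM) and naive ASC (137 to 199.5 CPM), but its log2 fold change of -0.73 (SE 0.26, edgeR adjusted p = 0.0751) missed the threshold. With library totals alone it passed (-0.78, edgeR adjusted p = 0.0449), as it did without naive EV 3 (-0.73, adjusted p = 0.0386). Mir503 was at -0.43 (edgeR adjusted p = 0.684), and Mir542, with 6 counts in primed and 11 in naive ASC, at -0.31 (edgeR adjusted p = 0.78). The ratio of summed Mir542 counts, primed over naive ASC, had a 95% exact interval of 0.236 to 2.3, so at this depth neither a fall nor a rise of that size was detectable. Mir450b had 3 counts in primed and 12 in naive ASC, a ratio of 0.357 (95% exact interval 0.0646 to 1.32).

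In EVs none of the 4 members passed the test for priming, where edgeR called 0.816% of all loci, 2 in number (8 without primed EV 2), and the libraries did not overlap at 2.45%. Mir351 was at -0.58 (SE 0.20, edgeR adjusted p = 0.228), with 1337 to 2273 CPM in primed and 2025 to 3568 CPM in naive EV, which overlapped only through primed EV 5. It was the 1 member with an unadjusted p under 0.05 by edgeR, DESeq2 and limma-voom, and none of these called a member. Mir322 was at -0.12 (edgeR adjusted p = 0.88), Mir503 at -0.47 (edgeR adjusted p = 0.83) and Mir542 at 0.17 (edgeR adjusted p = 0.889). With 1 library left out, Mir503 ran from -0.72 to -0.088 and Mir542 from 0.076 to 0.46, so neither size is well set. Mir542 libraries overlapped, with primed EV 2 the lowest of all 10. Mir322 was the least variable member in primed EV, at 300.2 ± 31.4 CPM (SD, n = 5) against 325 ± 118 (SD, n = 5) in naive EV.

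The difference between the priming effects, EV less ASC, was 0.61 for Mir322 (edgeR adjusted p = 0.462), 0.49 for Mir351 (edgeR adjusted p = 0.464), 0.48 for Mir542 (edgeR adjusted p = 0.906) and -0.04 for Mir503 (edgeR adjusted p = 0.989). No locus was called (0% of 245 by edgeR, with 26 at an unadjusted p under 0.05, 3 called by DESeq2 and 0 by limma-voom). Without primed ASC 5 the count was 12 and without naive ASC 5 it was 1. No member had an unadjusted p under 0.05 with all libraries. The fall of Mir351 in ASC was thus not shown to differ from its change in EVs.

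Of the ratios within a library, that of Mir322 to Mir351 differed between primed and naive EV. The log2 ratio of Mir322 to Mir351 was -2.55 ± 0.23 (SD, n = 5) in primed EV and -3.06 ± 0.32 (SD, n = 5) in naive EV, a difference of 0.51 or 1.43-fold (exact permutation p = 0.0159, adjusted 0.0317), although the ranges, -2.81 to -2.27 and -3.47 to -2.78, overlapped slightly. In ASC this ratio differed by 0.31 (exact permutation p = 0.486, adjusted 0.511), and the differences in EVs and in ASC were not tested against each other. None of the other ratios passed for priming with all libraries, although the ratio of Mir322 to Mir542 in EVs did without primed EV 2 (-0.46, adjusted exact permutation p = 0.0423).

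The seed families show where each member stands among loci with the same seed, which share many predicted targets. The seed's counts below are counts of whole hairpins with this seed in an annotated arm, not of the arm itself. Among the 10 loci with the miR-322-5p seed, 6 were tested: Mir322, Mir15a, Mir15b, Mir16-1, Mir16-2 and Mir195a. Mir15a and Mir15b sit beside Mir16-1 and Mir16-2 in their own clusters. In naive EV against naive ASC, Mir15a (2.64), Mir16-1 (1.02) and Mir322 were higher and Mir15b (-2.05) was lower, while Mir16-2 (0.78) and Mir195a (0.12) did not pass, so 3 of 6 were higher and 1 lower with a median of 0.87, beside 33.5% and 32.7% of all loci. The primed comparison gave the same counts, with a median of 1.12. Mir16-1 and Mir16-2 encode the same mature miR-16-5p, so the split of their reads is uncertain, and likewise for Mir125b-1 and Mir125b-2. The counting had no option for reads with several placements, so reads of these mature miRNAs may also be missing. The shares of Mir322 and Mir351 in their seeds' counts below would then be too high, by an amount that was not tested.

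Mir322 supplied a larger part of the hairpin counts of loci with this seed in vesicles than in cells. Its share was 25.5% ± 7.42 (SD, n = 5) in naive EV and 12.7% ± 3.06 (SD, n = 4) in naive ASC (exact permutation p = 0.0317, adjusted 0.0454), with ranges of 14.2 to 34.5% and 8.71 to 16.1% that overlapped. The naive call was lost when naive EV 1, 2, 3 or 5 was left out, with differences from 10.5 to 13.2 percentage points, and when libraries that share a title number counted as 1 sample (12.7 points, adjusted p = 0.0816, exact permutation test). In primed samples it was 22.4% ± 3.19 (SD, n = 5) and 7.71% ± 1.13 (SD, n = 4), with no overlap (exact permutation p = 0.0159, adjusted 0.0317). Between primed and naive ASC the share differed by -5.01 percentage points, with no overlap (exact permutation p = 0.0286, the smallest that 4 against 4 can give, adjusted 0.0454). That call was lost without loci that share a mature sequence (-5.61, adjusted p = 0.0816, exact permutation test). In EVs the share differed by -3.11 points (exact permutation p = 0.413, adjusted 0.459), and by -5.91 points without naive EV 4, where the test passed (adjusted exact permutation p = 0.0423). The rest of the seed's counts in cells came mostly from Mir15b, at 66.1% in naive and 69.8% in primed ASC against 16.7% and 18.4% in EV. Mir322 was not alone in its larger share in vesicles. Mir15a, the largest part there, held 32.9% in naive and 30.7% in primed EV against 5.12% and 5.29% in ASC. Shares of a whole depend on each other, so the lower share of Mir15b in EVs goes with higher shares elsewhere.

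Among the 6 loci with the miR-351-5p seed, the 4 tested (Mir351, Mir125a, Mir125b-1 and Mir125b-2) were all called lower in EV than in ASC in both comparisons. Their medians were -1.78 and -2.12, and of all loci 32.7% and 32.2% were called lower. Mir351 had the smallest fold change, close to that of Mir125b-2 in naive samples, at -1.27 against -2.23, -2.24 and -1.33 in naive samples, and -0.78 against -2.86, -2.52 and -1.72 in primed samples. Its share of the seed's counts was higher in vesicles, at 13.7% ± 2.35 (SD, n = 5) against 7.81% ± 1.65 (SD, n = 4) in naive samples and 7.99% ± 2.15 (SD, n = 5) against 2.33% ± 0.14 (SD, n = 4) in primed samples. Neither pair overlapped (exact permutation p = 0.0159, adjusted 0.0317 for each). The differences of 5.88 and 5.66 points became 11.4 and 13.99 points, both called, without Mir125b-1 and Mir125b-2, which share a mature sequence and hold the larger part of the seed's counts in each group.

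In primed ASC the family split. Mir125a rose by 0.82, Mir125b-1 by 0.68 and Mir125b-2 by 0.98 on the log2 scale (edgeR adjusted p = 0.00883, 0.0115 and 0.00469), while Mir351 fell by 1.07. All 4 tested loci of the seed were called, beside 10.2% of all loci. The share of Mir351 in the seed's counts was 5.91 to 9.26% in the naive and 2.21 to 2.49% in the primed ASC libraries, a fall of 5.47 points with no overlap (exact permutation p = 0.0286, adjusted 0.0454). In EVs the share was lower by 5.70 points after priming, with ranges of 5.53 to 11.1% and 10.9 to 16.3% that overlapped slightly (exact permutation p = 0.0159, adjusted 0.0317). Without Mir125b-1 and Mir125b-2 these differences were -11.8 points in ASC and -9.20 points in EVs, both called. These shares do not depend on the scaling between libraries. Meanwhile the counts of the whole seed, most of them from Mir125a and Mir125b-1, made up 10.7% ± 2.86 of all counts in naive and 16.2% ± 3.01 in primed ASC (SD, n = 4 each), and 1.77% ± 0.242 and 1.70% ± 0.124 in naive and primed EV (SD, n = 5 each).

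**Figure D4:**
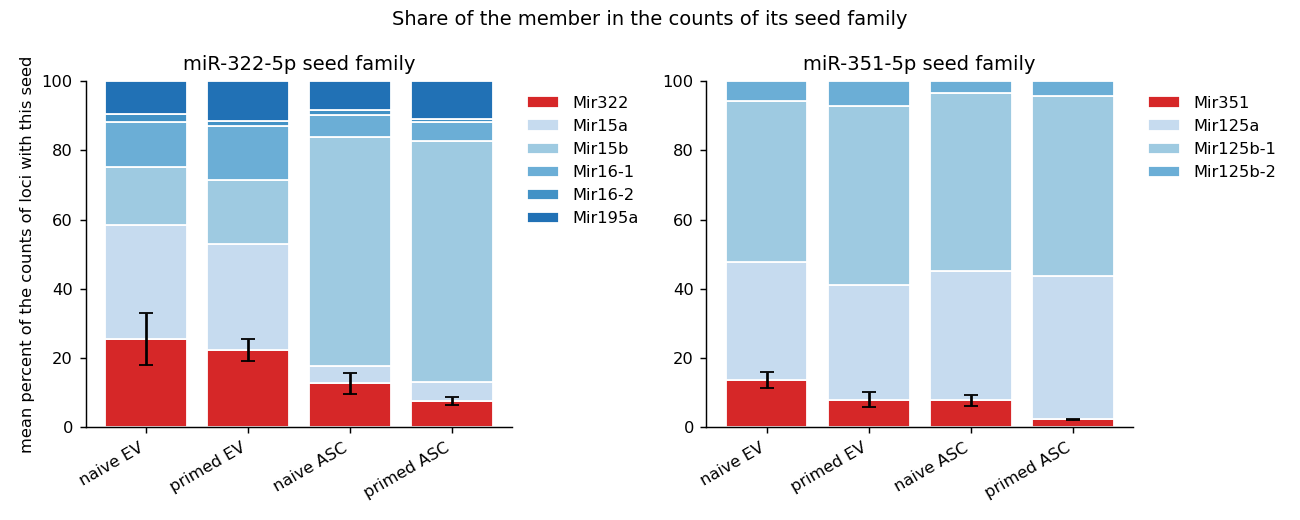
Mean percent of the counts of loci with the miR-322-5p seed (left) and the miR-351-5p seed (right) that came from each locus, by group, with the member in red and its SD as the error bar. Mir322 is at 25.5% in naive EV and 7.71% in primed ASC, with Mir15b the largest part in cells, and Mir351 is at 13.7% and 2.33% in these groups.

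The members differ in base composition, and composition moved with the difference between EV and ASC. The GC content of the mature arms averaged 64.6% for Mir351, 53.3% for Mir503, 44.3% for Mir322, 43.2% for Mir542 and 34.1% for Mir450b, so the cell-enriched members were the GC-rich ones. Of the 245 loci, 222 matched a mature arm by symbol, with a median of 48.9%. Across these loci, which are not independent replicates and share libraries, Pearson's r between arm GC and log2 fold change was -0.339 in naive and -0.452 in primed EV against ASC. Over all 245 loci r with the GC content of the hairpin was -0.169 and -0.29. The members' hairpins spanned only 50.5 to 54.9% GC, near the median of 51.1%, so removing the trend on hairpin GC could move them little. With it removed all 4 members kept their calls between EV and ASC, which says little about composition. Mir450b, with 30.5% hairpin GC, went from 3.60 to 2.88 in naive and from 4.46 to 3.37 in primed samples. The part of arm composition in these differences was not tested.

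**Figure D5:**
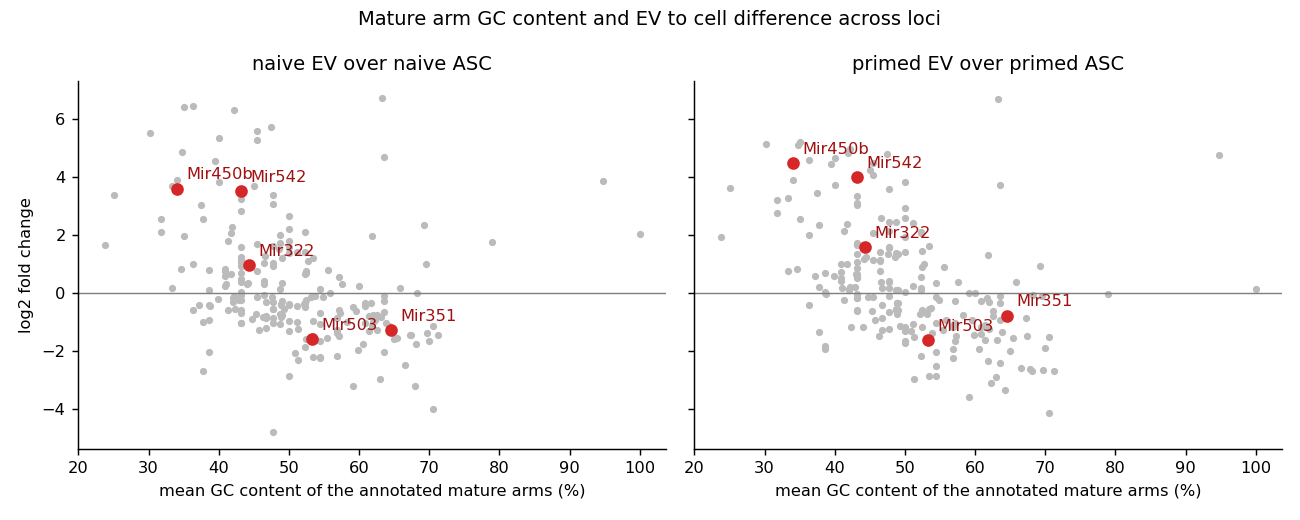
Log2 fold change of EV over ASC (vertical axis) against the mean GC content of the annotated mature arms in percent (horizontal axis) for 222 tested loci (grey) and the 5 tested cluster loci (red), naive on the left and primed on the right. Mir351 and Mir503 lie at higher GC and below 0, and Mir322, Mir542 and Mir450b at lower GC and above 0.

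A short motif, GGAG, has been described in miRNAs sorted into exosomes, and it was looked up in the mature arms after the values were seen. Among the members' arms it was found only in miR-351-5p, from base 8, shown in capitals here.
miR-351-5p: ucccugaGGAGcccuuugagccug
It was held by 239 of 1738 mature arms in the table (13.8%), searched on the strand of the mature RNA. Of 36 tested loci with it, 1 was higher and 21 were lower in naive EV, and of 186 without it, 71 were higher and 49 lower. In primed EV the numbers were 3 and 22 with it, and 76 and 47 without it. A match is a description of the letters.

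The loci with the most similar profiles over the 18 libraries lay mostly outside the cluster. Likeness was the root mean square difference of log2 CPM, each locus centred on its own mean. These profiles include the difference between EV and ASC, so similar fold changes in the nearest loci follow from how they were chosen. Mir322 was nearest to Mir148a (0.37), Mirlet7i (0.37) and Mir27b (0.39), which were higher in EV by 1.18, 1.38 and 1.04 in naive and 1.68, 1.91 and 1.41 in primed samples (log2). Mir351 was nearest to Mir3057 (0.46), Mir877 (0.47) and Mir615 (0.49), at -1.10 to -1.51 in primed samples. Mir542 was nearest to Mir30e (0.33), Mir21a (0.35) and Mir340 (0.54), at 3.24, 3.07 and 3.88 in naive samples. Mir503 was nearest to Mir3061 (0.67), Mir3060 (0.67) and Mir497b (0.79).

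By this measure, which includes the difference between EV and ASC, the cluster loci mostly ranked low among each other. Mir322 had Mir351 in place 129, Mir542 in place 122 and Mir503 in place 196 of 244 other loci. The closest pairs within the cluster were Mir503 with Mir351 (place 9 for Mir503) and Mir542 with Mir450b (place 22 for Mir542). After each group's mean was removed, r over the 18 libraries was 0.50 between Mir322 and Mir450b (place 15 of 244 for Mir322). It was 0.46 between Mir503 and Mir351 (place 17 for Mir503) and 0.40 between Mir322 and Mir542 (place 24 for Mir322). Between Mir322 and Mir351 it was 0.19 (place 68 for Mir322). In the remaining pairs r ran from -0.104 (Mir503 with Mir542) to 0.105 (Mir542 with Mir450b). These values are descriptions of libraries that share scaling factors. Low counts limit these values for Mir503 and Mir542.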

How the data were processed

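Small RNA libraries were made from 5 µl of RNA with the TruSeq Small RNA kit, per the labels. The authors deposited 1 file of raw counts per library, counts of reads per annotated miRNA hairpin, without normalisation. Per the file headers, counts came from featureCounts 1.5.3 with Ensembl 76 genes, unstranded and without options that would count multi-mapping or multi-overlapping reads. Per the submitters' processing notes, STAR 2.0.4, bcl2fastq, featureCounts 1.45 and Subread were used with GRCm38, which is another featureCounts version. Neither trimming nor alignment parameters are stated there. The labels call the RNA of all samples, ASC included, vesicle miRNA. Groups were taken from the source names.

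Of 2009 loci, 1899 matched GENCODE M21 by identifier, and 1820 had the same coordinates there. Unmatched loci (110) took 5 of 17629699 counts. Loci were kept by filterByExpr (245 loci with 99.9573% of the counts), scaled by TMM and fitted with 1 mean per group over all 18 libraries in edgeR 4.0.16 (quasi-likelihood test, R 4.3.3, Benjamini-Hochberg over the 245 loci, threshold 0.05). SE was derived from the test's F value and is approximate at low counts. Ratios used counts plus 0.5, and ratios and shares were tested with two-sided exact permutation tests (scipy 1.17.1). The edgeR script was tested on simulated data. Alternatives were scalings, filters, DESeq2 1.42.0, limma 3.58.1 (voom), robust dispersion, thinning, replicate blocks, seed families without loci of a shared mature sequence and leaving out each library. Counting libraries that share a title number as 1 sample was added after seeing the data. Named loci are the members, the rest of the cluster, tested loci with a member's seed, the neighbouring X-linked cluster and the 3 nearest profiles of each member. Seeds came from RefSeq. The members, gene lists and markers were chosen with earlier results of these data known, and the motif after seeing values.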

Additional observations from a re-analysis of the deposited data

Results flagged for a closer look

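In 44 sets of values of 4 or 5 libraries of a group, 5 had a library whose gap to its nearest neighbour was above Dixon's 95% critical value, where chance flags about 1 in 20 groups. Naive EV 3 had the highest Mir542 level, at 63.1 CPM against 26.6 to 34.7 in the other naive EV libraries. The same library had the highest Mir450b level, at 80.3 CPM against 31.4 to 35.6. Primed EV 2, the deepest library, had the lowest Mir542 level, at 23.5 CPM against 44.4 to 49.9, and therefore the highest log2 ratio of Mir322 to Mir542 of its group, at 3.66 against 2.53 to 2.82. In primed ASC 4, the shallowest library, Mir322 held 6.02% of the counts of loci with its seed, against 8.20 to 8.39% in the other primed ASC libraries, from 18 Mir322 counts.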

How the results depend on the processing

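Of 1167 recomputed values, 1044 kept their direction and their side of the threshold, or stayed within the set limits for counts and shares. The calls of Mir351 and Mir542 between EV and ASC, and of Mir351 for priming in ASC, were kept under every alternative run, the fit without a filter included. Low counts limit Mir503 and Mir542 most, and the shallowest libraries are ASC. With library totals alone, Mir322 in naive EV against ASC was at 0.49 and no longer passed, and Mir322 for priming in ASC passed at -0.78. Under the same scaling Mir542 for priming in EV turned to -0.11, with the median of all loci at -0.25. Without a filter Mir503 was at -1.58 (naive) and -1.47 (primed) in EV against ASC, and with thinned counts at -1.10 (naive), and none of these passed. Mir542 for priming in ASC turned to 0.0315 with limma-voom and 0.0119 with thinned counts. The cause of these changes was not tested.

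Mir503 in the comparison of the priming effects turned to 0.11 without a filter, 0.0793 with limma-voom and 0.0419 with the trend on hairpin GC removed, a setting chosen after seeing the data, and was at -1.22 with thinned counts, as Mir503 for priming in EV was at -1.87. Over all alternatives the difference of priming effects ran from 0.34 to 0.70 for Mir322, 0.26 to 0.61 for Mir351 and 0.02 to 0.57 for Mir542. Calls for priming in EV numbered 1 with TMMwsp, library totals, TMM without the 5 most abundant loci or a mean of at least 10 CPM, 8 without a filter and 5 with DESeq2. DESeq2 called 40 loci for priming in ASC, and 3 loci were called for the difference of priming effects both without a filter and with DESeq2. Thinned, the log2 ratio of Mir322 to Mir503 differed by 1.86 between naive EV and ASC and did not pass. Without loci that share a mature sequence, the difference of the Mir322 share between primed and naive ASC was -5.61 points and did not pass, while the Mir351 share differences rose to 11.4 and 13.99 points in EV against ASC and -9.20 (EV) and -11.8 (ASC) for priming and kept their calls. With the Mir497b locus, which also holds the Mir497 hairpin and was added after seeing the data, the shares of Mir322 kept their calls. Over all loci but the 5 most abundant, the members made up 0.863, 0.542, 1.65 and 0.740% of counts in naive EV, primed EV, naive ASC and primed ASC.

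Libraries with the same source name number correlated in their deviations at r from 0.129 to 0.525 for numbers 1 to 4 and from -0.16 to 0.0755 for number 5. Of the naive EV libraries with a partner, 3 of 4 were closest to the naive ASC library of their own number, which is a hint of pairing. It was 2 of 4 for primed EV against primed ASC, 2 of 5 for primed against naive EV and 2 of 3 for primed against naive ASC. Libraries of different numbers reached an r of 0.662 (primed EV 2 with naive EV 1), above every pair of the same number. Since not every pair was above 0.1, the numbers were not used as pairs. With the replicate block by source name number Mir503 in the comparison of priming effects was at 0.0858, and by title number at 0.0624, or 0.13 with the GC trend also removed. The block by title number gave 7 calls for priming in EV, and 9 with the GC trend removed. With either block Mir351 for priming in ASC was at -1.13 or -1.15, and no call of a member changed. With primed EV 1 and 5 as 1 sample, the primed ratio of Mir322 to Mir542 was -1.87 and did not pass. With naive EV 1 and 2 also as 1 sample it was again -1.87, the naive Mir322 share difference was 12.7 points and did not pass, and Mir503 in the comparison of priming effects turned to 0.10. No other call of a member, ratio or share changed under either setting.

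Leaving out 1 library at a time gave these ranges. In edgeR fits, Mir503 in primed EV against ASC ran from -1.80 to -1.39, Mir322 for priming from -0.25 to 0.12 in EV and from -0.78 to -0.63 in ASC, Mir503 for priming in EV from -0.72 to -0.088, and Mir542 from 0.076 to 0.46 in EV and -0.55 to -0.071 in ASC. The difference of priming effects ran from -0.30 to 0.26 for Mir503, 0.20 to 0.62 for Mir351, 0.24 to 0.77 for Mir542 and 0.48 to 0.85 for Mir322. Calls ran from 2 to 8 for priming in EV, from 6 to 35 for priming in ASC and from 0 to 12 for the difference. The log2 ratio of Mir322 to Mir503 ran from 2.22 to 3.05 in naive and 2.92 to 3.68 in primed EV against ASC, and from -0.24 to 0.80 for priming in EV. The ratio to Mir351 ran from 1.93 to 2.30 and 2.18 to 2.63 in EV against ASC. The ratio to Mir542 ran from -2.69 to -2.24 and -2.28 to -1.66 in EV against ASC, and from -0.46 to -0.18 for priming in EV. The Mir322 share of its seed ran from 10.5 to 15.6 and 13.6 to 15.8 points in EV against ASC, from -5.91 to -0.846 for priming in EV and from -6.35 to -3.89 in ASC. The Mir351 share ran from 5.24 to 6.58 and 4.88 to 6.27 points in EV against ASC and from -6.10 to -4.99 for priming in ASC. The exact tests that involve an ASC group lost their calls whenever a library of that group was left out, since fewer libraries cannot give a small enough p. Some EV against ASC tests did not reach even the 0.0357 of the others. The naive Mir322 share without naive ASC 1, 4 or 5 had an exact permutation p = 0.0714. So had the primed ratio of Mir322 to Mir542 without primed ASC 2, 3 or 5.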
